A study of Komagataella phaffii GS115 with 6 samples.

Results

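Methanol-grown Komagataella phaffii (Pichia pastoris) passes part of its formaldehyde into a sugar phosphate cycle, and 4 genes of that cycle and of the import of proteins into peroxisomes were examined here: FBA1 (PAS_chr1-1_0319), SHB17 (PAS_chr2-2_0177), FBP1 (PAS_chr3_0868) and PEX13 (PAS_chr2-2_0207). They were taken by identifier from a deposited table of 115 genes, all 4 were found, and all 4 passed the filter on low values. Transcripts had been measured by RNA-seq in strain GS115, a histidine auxotroph whose genotype the labels give as WT, at 48 h. The cells were in BMMY, a rich buffered medium that supplies methanol, or in the same medium plus 1% maltose. Each medium had 3 libraries, 6 in all, and whether they came from separate cultures is not stated, so the spread between libraries may be technical. The series title concerns recombinant type III collagen, and the labels name no collagen construct in these cells. The 115 genes had been selected by the authors as different between these same libraries, and the 4 genes were chosen with those differences known. Their fold changes are therefore given as a description, with no p-value.

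In methylotrophic yeasts, methanol is oxidised to formaldehyde in the peroxisome, an organelle bounded by a single membrane. Part of the formaldehyde is burned to carbon dioxide through formate, and part is joined to xylulose monophosphate to give glyceraldehyde phosphate and dihydroxyacetone. After phosphorylation of the dihydroxyacetone, an aldolase combines the triose phosphates, and phosphatases and sugar-rearranging enzymes return xylulose monophosphate to the cycle. In K. phaffii, peroxisomal forms of enzymes of this cycle are known, and proteins of the peroxisome interior are imported fully made through a docking complex in its membrane.

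The labelled roles rest on annotation of unequal depth. FBA1, fructose bisphosphate aldolase, condenses the triose phosphates to fructose bisphosphate and splits it in glycolysis. Its deposited annotation names a class II aldolase domain and 9 gene ontology terms, and places it in 0 KEGG pathways. FBP1, fructose bisphosphatase, removes a phosphate from that product and is also the regulated phosphatase of gluconeogenesis. It is placed in 5 KEGG pathways, among them gluconeogenesis, the pentose phosphate pathway and methane metabolism, and has 6 gene ontology terms. SHB17 carries the symbol of the Saccharomyces cerevisiae sedoheptulose bisphosphatase, which feeds sugar phosphates into ribose synthesis in that yeast. The deposited product name calls it a putative protein of unknown function, with a histidine phosphatase domain, 0 KEGG pathways and 0 gene ontology terms. PEX13 is a membrane protein of the peroxisomal docking complex that binds the receptors carrying newly made proteins, and its annotation names a peroxin 13 region and an SH3 domain.

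The depth of each library, worked out from counts, FPKM and gene length, ran from 35.3 to 76.1 M fragments, with the maltose libraries at 55.3, 45.6 and 35.3 M and the BMMY libraries at 53.2, 76.1 and 53.5 M. FPKM is fragments per kilobase of gene and per 1 M fragments of the library. In a bulk culture, less transcript per cell and fewer cells that make it cannot be told apart. The length implied by counts and FPKM equalled the annotated gene length for SHB17 (729 bp), FBP1 (1062 bp) and PEX13 (1143 bp). For FBA1 it was 1062 bp against an annotated 1106 bp, a difference of 44 bp, so the levels of FBA1 per length rest on the shorter one. Counting error was small beside the spread between libraries: the exact Poisson 95% interval of a count of these genes reached at most 0.956% of it to either side. It covers counting error only. K. phaffii is known to carry another aldolase gene, which was not analysed here, and whether reads were shared between the aldolase genes was not tested.

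With libraries scaled by their implied depths, all 4 genes were higher with maltose, at log2 fold changes of 0.66 to 0.74. With TMM factors these were 0.2 to 0.25 and no longer called, where 13 of the 112 genes tested were called higher. With equal sums of FPKM over the table the 4 fold changes turned to between -0.18 and -0.12. FBA1, the aldolase, stood at 3746, 2223 and 2291 FPKM in BMMY replicates 1, 2 and 3 and at 4837, 4414 and 4063 FPKM with maltose. Every maltose library lay above every BMMY library, but the lowest maltose value was only 1.08 times the highest BMMY value, that of replicate 1. The means were 2753 ± 860.0 and 4438 ± 387 FPKM (SD, n = 3), and the log2 fold change from edgeR's quasi-likelihood fit was 0.69 (SE 0.23), equal to 1.61-fold.

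SHB17, the candidate sedoheptulose bisphosphatase, had levels very like those of the aldolase. It stood at 3613, 2364 and 2089 FPKM in BMMY and at 4609, 4407 and 3752 FPKM with maltose. Here too the media did not overlap and BMMY replicate 1 came close to the maltose libraries, the lowest of which was 1.04 times as high. The means of 2688 ± 812 and 4256 ± 448 FPKM (SD, n = 3) gave a fitted log2 fold change of 0.66 (SE 0.23).

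FBP1, the fructose bisphosphatase, had the widest gap between the media. Its levels were 1487, 1233 and 1219 FPKM in BMMY and 2172, 2106 and 2281 FPKM with maltose. The lowest maltose library was 1.42 times the highest BMMY library, and the BMMY libraries were closer together than for the other genes of the group, with a coefficient of variation of 11.5% against 31.2% for FBA1, 30.2% for SHB17 and 26.2% for PEX13. With means of 1313 ± 151 and 2186 ± 88.4 FPKM (SD, n = 3), the fitted log2 fold change was 0.74 (SE 0.16).

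PEX13, the peroxisomal import gene, was the lowest of the 4 in every library. It stood at 1128, 789 and 694 FPKM in BMMY and at 1390, 1408 and 1320 FPKM with maltose. The maltose libraries were nearly level, with a coefficient of variation of 3.36%, and each was above every BMMY library, by at least 1.17 times. Its means were 870.0 ± 228 and 1373 ± 46.1 FPKM (SD, n = 3), and the fitted log2 fold change was 0.66 (SE 0.21).

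**Figure D1:**
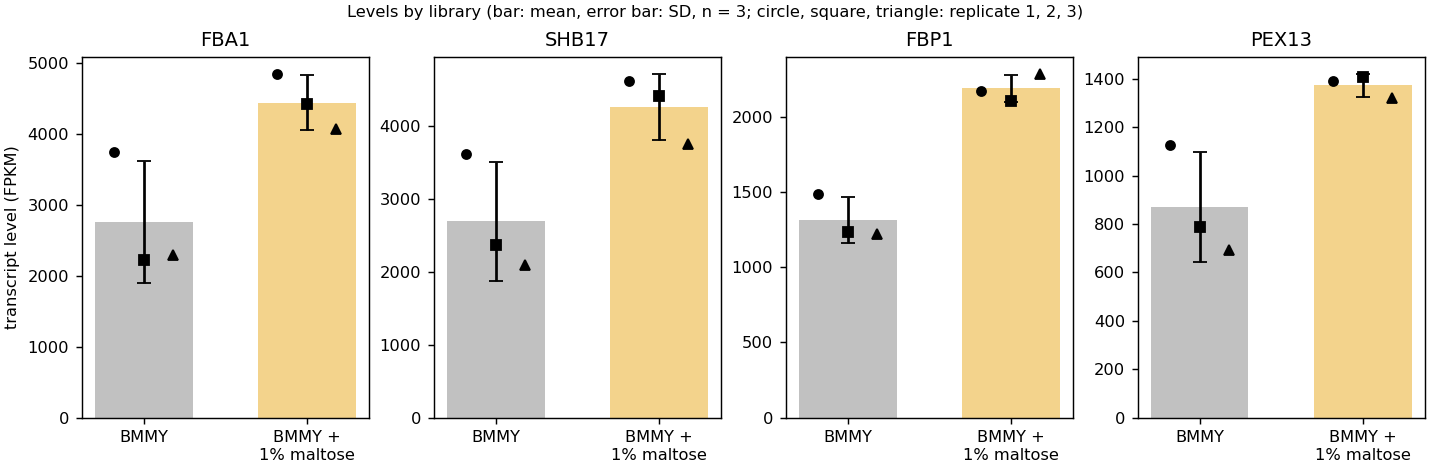
Transcript level in FPKM (vertical axis, from 0, a separate scale for each gene) of FBA1, SHB17, FBP1 and PEX13 in BMMY and in BMMY with 1% maltose. Bars are means, error bars SD over 3 libraries, and the circle, square and triangle are replicates 1, 2 and 3. BMMY replicate 1 is the highest BMMY library for all 4 genes, and no BMMY library reaches a maltose library.

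The same non-overlap, every maltose library above every BMMY library, was seen in 44.6% of the 112 genes tested. All 4 genes were among the 49 of 112 (43.8%) called higher by edgeR's quasi-likelihood test at a Benjamini-Hochberg threshold of 0.05, and 56 (50%) were called lower. Since the genes were chosen from this contrast, nothing is read from these counts. On the authors' own scale, in the authors' deposited table, the log2 fold changes were 1.06 for FBA1, 1.04 for SHB17, 1.1 for FBP1 and 1.03 for PEX13. The smallest positive value in the authors' deposited table was 1.001, so the list ends at about 1.0. Counted from that smallest value, FBA1, SHB17, FBP1 and PEX13 were the 16th, 12th, 22nd and 9th of 56, and genes under the limit were not analysed here.

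The size of each difference depended on how the libraries were scaled. TMM assumes that most genes in the table do not change, and equal sums assume that their total does not. Under these scalings none of the 4 was called, beside 13 and 7 of the 112 genes tested that were called higher. With so few called, nothing is read from the absence of the 4. The median over all genes tested shifted by -0.49 and -0.86. With DESeq2 size factors the 4 genes were at 0.99 to 1.06. The share of calls that were higher was 46.7% with the implied depths, 18.8% with TMM and 11.1% with equal sums.

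Levels per length had the order FBA1, SHB17, FBP1 and PEX13 in the means of both media. Over the 115 genes of the table, these were the 10th, 11th, 12th and 14th highest mean FPKM. FBA1 and SHB17 did not differ beyond their spread: the ratio of their FPKM within a library was 1.04, 0.94 and 1.1 in BMMY and 1.05, 1.0 and 1.08 with maltose. FBP1 was below both in each of the 6 libraries, with FBA1 1.78 to 2.52 times as high. PEX13 was below FBP1 in each library, by 1.32 to 1.75 times.

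A ratio of 2 genes within a library does not depend on the scaling between libraries, and for the 4 genes these ratios overlapped between the media. Of the 6 pairs among them, 0 had separate values in the media, beside 26% of the 1540 pairs of genes with a positive fold change in the table. The mean log2 ratios differed between the media by -0.04 to 0.05. SHB17 over PEX13, for example, was 3.2, 3.0 and 3.01 in BMMY and 3.32, 3.13 and 2.84 with maltose. The pairs share genes and libraries and are not independent. The 4 genes were chosen from this contrast, and their fitted log2 fold changes were close together, at 0.66 to 0.74. Those of the 56 genes with a positive fold change ran from 0.63 to 2.21. Genes alike in fold change have ratios that differ little between the media, so nothing is read from the 0 of 6.

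FDH1, formate dehydrogenase, is the last step of the branch that burns formaldehyde to carbon dioxide. Its fitted log2 fold change was 0.9, beside 0.66 to 0.74 for the 4 genes. Their ratios to FDH1 restate this difference. The mean log2 ratios of FBA1, SHB17, FBP1 and PEX13 to FDH1 differed by -0.23, -0.26, -0.22 and -0.27, maltose minus BMMY. Of these 4, only PEX13 had separate values, with 0.0518, 0.0637 and 0.0628 in BMMY and 0.0513, 0.0515 and 0.0444 with maltose. The value of BMMY replicate 1 was close to those of maltose replicates 1 and 2. Separate values to FDH1 were found for 21.8% of the 55 other genes with a positive fold change. The share among the 4 was near this, and nothing is read from it. FLD1, formaldehyde dehydrogenase, an earlier step of that branch, had a fitted log2 fold change of 0.7, within the range of the 4 genes. Their ratios to FLD1 overlapped between the media and differed by -0.05 to 0.0 in the mean. Overlap was the usual outcome, as 26% of the 1540 pairs of genes with a positive fold change had separate values.

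**Figure D2:**
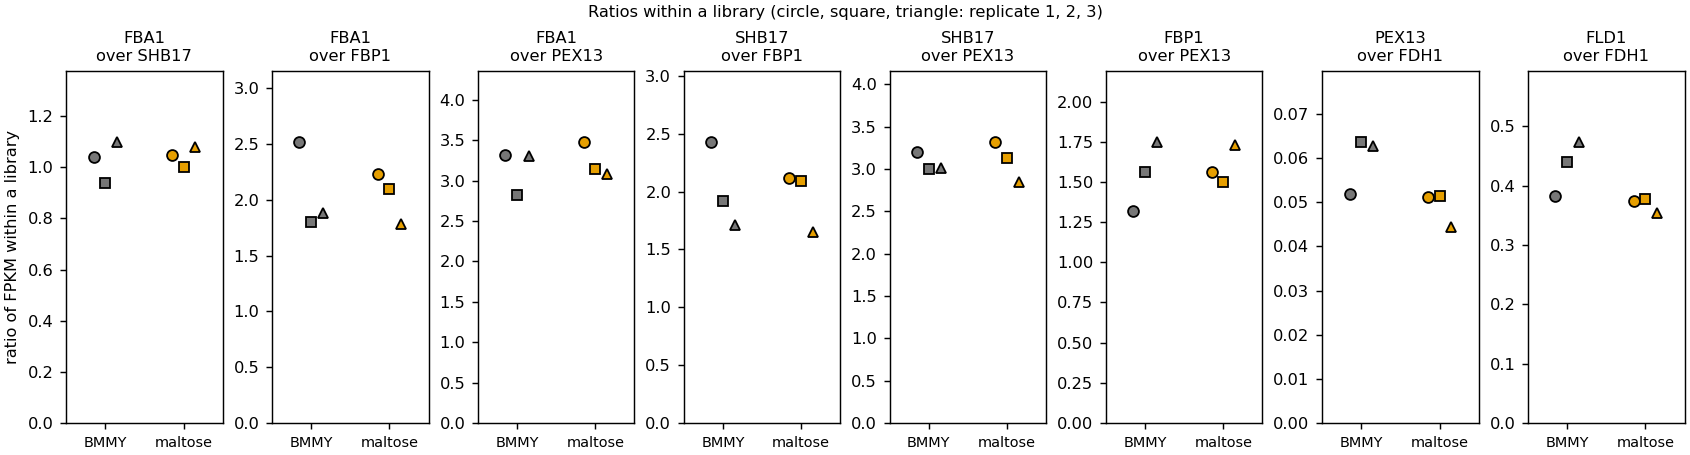
Ratio of FPKM of 2 genes within a library (vertical axis, from 0, a separate scale for each pair), in BMMY (grey) and with maltose (orange), where the circle, square and triangle are replicates 1, 2 and 3. The 6 pairs among FBA1, SHB17, FBP1 and PEX13 overlap between the media. Of the ratios to FDH1, only those with separate values are drawn, PEX13 over FDH1 and FLD1 over FDH1, which are lower in every maltose library. For PEX13 over FDH1, BMMY replicate 1 (0.0518) is close to maltose replicate 2 (0.0515). FBA1, SHB17 and FBP1 over FDH1 overlap between the media and are not drawn.

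The high level in BMMY replicate 1 was seen less in FBP1 than in FBA1, SHB17 and PEX13. It was above the mean of replicates 2 and 3 by 1.66 times for FBA1, 1.62 times for SHB17, 1.52 times for PEX13 and 1.21 times for FBP1. Over the 56 genes with a positive fold change, the median excess on the log2 scale was 0.62, with a range from -0.29 to 2.53, and the values of 0.73, 0.7 and 0.6 for FBA1, SHB17 and PEX13 lie near that median. FBP1, at 0.28, was 16th from the smallest. Against replicate 1 alone, the mean of the maltose libraries was 1.18 times as high for FBA1 and for SHB17, 1.22 times for PEX13 and 1.47 times for FBP1. Against the mean of replicates 2 and 3 it was 1.97, 1.91, 1.85 and 1.78 times for FBA1, SHB17, PEX13 and FBP1. The order of the genes by fold change therefore turned with this library. Without replicate 1 the fitted log2 fold changes went from 0.69 to 0.98 for FBA1, from 0.66 to 0.93 for SHB17, from 0.66 to 0.89 for PEX13 and from 0.74 to 0.83 for FBP1.

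Leaving out BMMY replicate 1 raised the number of genes called higher over the whole table from 49 to 56, with all 4 examined genes called. Leaving out any other library lowered it. Without maltose replicate 3 it fell to 37, and all 4 stayed called. In 4 further fits, calls of FBA1, SHB17 and PEX13 were among those lost. FBA1, SHB17 and PEX13 were not called without BMMY replicate 2 (0.56, 0.58 and 0.59), BMMY replicate 3 (0.57, 0.51 and 0.52), maltose replicate 1 (0.62, 0.6 and 0.65) or maltose replicate 2 (0.69, 0.64 and 0.64). In the same 4 fits the genes called higher numbered 29, 35, 39 and 41 of 112, in place of 49. The log2 fold change of FBP1 ran from 0.68 to 0.83 over the 6 fits that each left out 1 library. Since the genes were chosen from this contrast, the calls say nothing of how stable any of them is.

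**Figure D3:**
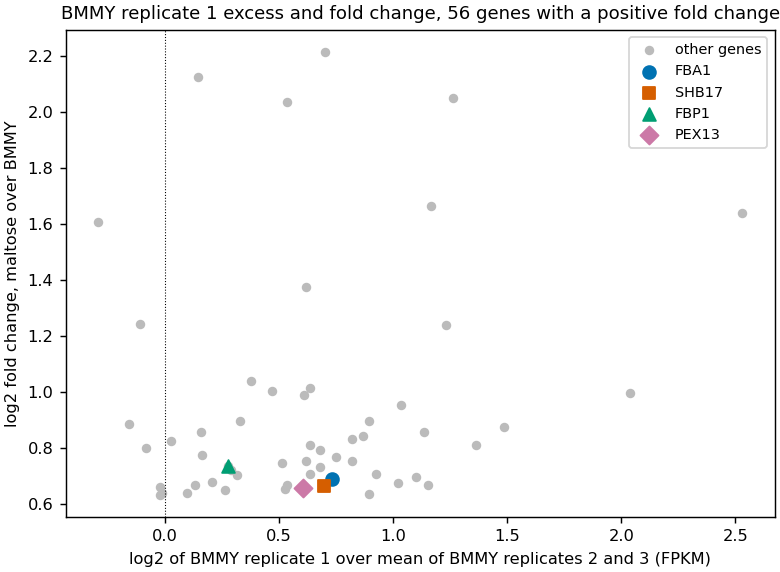
Log2 of the FPKM of BMMY replicate 1 over the mean of BMMY replicates 2 and 3 (horizontal axis) against the log2 fold change of maltose over BMMY (vertical axis) for the 56 genes with a positive fold change, each point 1 gene. FBA1, SHB17 and PEX13 lie together at an excess of 0.6 to 0.73, and FBP1 lies apart at 0.28.

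The profile of each gene over the 6 libraries was compared with that of every other gene tested, as the root mean square difference of log2 FPKM after each gene's own mean was taken off. A smaller value means a more similar profile, and the points share libraries and the selection of the list. FBA1, SHB17 and PEX13 were alike, at 0.074 between FBA1 and SHB17, 0.072 between SHB17 and PEX13 and 0.097 between FBA1 and PEX13, where the median distance of each to the genes with a positive fold change was 0.22, 0.24 and 0.2. FBP1 was farther from them, at 0.18, 0.19 and 0.14 from FBA1, SHB17 and PEX13, beside a median of 0.2 to the genes with a positive fold change.

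The genes nearest to FBA1 were PAS_chr4_0417 (0.064), SHB17 and AGX1 (PAS_chr4_0416, 0.081). AGX1 encodes alanine:glyoxylate aminotransferase and is the only gene in the table that the deposited pathway annotation places in the peroxisome. PAS_chr4_0417, a gene with a J domain, the domain by which co-chaperones bind Hsp70 proteins, is the gene next to AGX1 in the annotation, with 0 genes between them. It was weakly expressed, at 5.86, 3.73 and 3.59 FPKM in BMMY and 8.29, 7.79 and 6.7 FPKM with maltose. These rest on counts of 265, 241 and 164 in BMMY and 390, 302 and 201 with maltose. Counting error was not worked out for PAS_chr4_0417, and whether its first rank goes beyond that error was not tested. The same gene was the nearest to SHB17 (0.072), followed by PEX13 and FBA1.

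PEX13 was nearest to AGX1 (0.05) and FLD1 (0.062), then SHB17. AGX1 stood at 214, 151 and 144 FPKM in BMMY and at 284, 268 and 257 FPKM with maltose, so that replicate 1 was again the highest BMMY library. FBP1 had other neighbours: 2 genes with the symbol ADY2, which in S. cerevisiae names an acetate transporter, PAS_chr2-1_0874 (0.085) and PAS_chr1-1_0378 (0.087), and PET18 (PAS_chr2-1_0189, 0.098). PAS_chr2-1_0874 stood at 550.0, 479 and 507 FPKM in BMMY and 970.0, 862 and 947 FPKM with maltose, with BMMY replicate 1 only 1.12 times the mean of the others. When only deviations within each medium were compared, 7 of these 12 nearest genes stayed among the 3 nearest of their gene. PEX13 kept AGX1 but not FLD1 or SHB17, and SHB17 did not keep FBA1. FBP1 kept PAS_chr2-1_0874 but not PAS_chr1-1_0378 or PET18, while FBA1 kept all of its nearest genes.

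**Figure D4:**
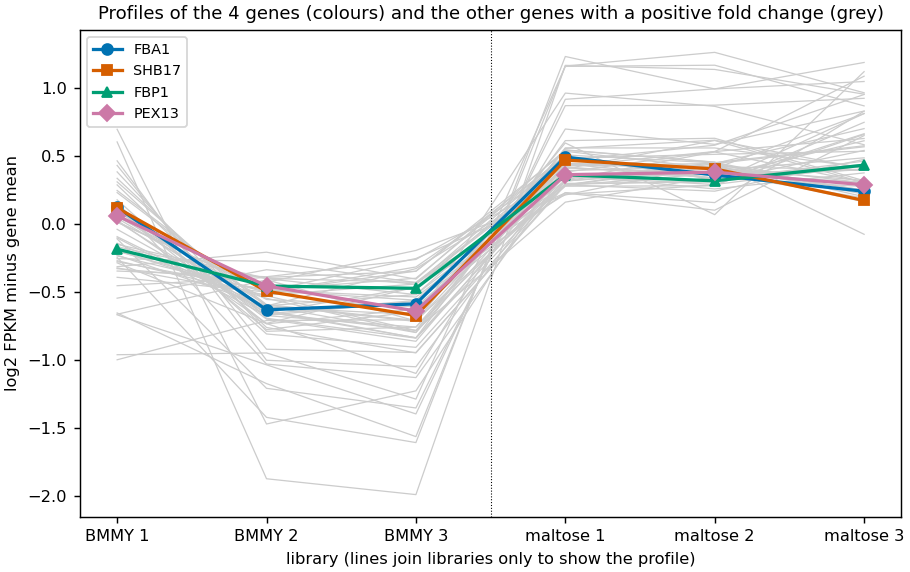
Log2 FPKM minus the gene's mean over the 6 libraries (vertical axis) in each library (horizontal axis) for FBA1, SHB17, FBP1 and PEX13 (colours) and the other genes with a positive fold change (grey), where lines join libraries only to show the profile. FBA1, SHB17 and PEX13 run together, and FBP1 is lower in BMMY replicate 1 and higher in maltose replicate 3.

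Of the genes of the xylulose monophosphate cycle searched for in the table, 3 were present, FBA1, FBP1 and SHB17, and 3 of 3 were called higher, with a median log2 fold change of 0.69, beside 43.8% of all genes tested. None of the 3 was called with TMM or with equal FPKM sums, where 13 and 7 of the 112 genes tested were called higher. For methanol oxidation, FLD1 and FDH1 were present and 2 of 2 were called higher (median 0.8). The search for peroxisome biogenesis genes found PEX13 alone, and that for maltose use found 0 genes. By symbol and product name, the search found FBP1 and FBA1 for glycolysis and gluconeogenesis (2 of 2 called higher) and SHB17 for the pentose phosphate pathway. The deposited KEGG annotation sorts them otherwise, with FBP1, ALD5 and FLD1 under glycolysis and gluconeogenesis (3 of 3 called higher) and FBP1 alone under the pentose phosphate pathway. Under KEGG methane metabolism it has FBP1, FDH1, AGX1 and FLD1 (4 of 4 called higher). KEGG carbon metabolism adds MET17, a methionine and cysteine synthase, to these, and of its 5 genes 4 were called higher and 1, MET17, lower. The table had been selected on these libraries, so these counts are not independent evidence of a direction. The median log2 fold change over all 112 genes tested was -0.35 and over the 56 with a positive fold change 0.8. The other genes of these pathways, among them those of dihydroxyacetone synthase and of the remaining peroxins, were not analysed here.

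In gene order, SHB17 and PEX13 lie on the same chromosome with 33 annotated genes between them, and FBA1, FBP1 and PEX13 have no direct neighbour in the table. A gene next to SHB17, PAS_chr2-2_0470, is in it. This gene, with an NmrA-like domain and no symbol, stood at 261, 244 and 286 FPKM in BMMY and at 380.0, 443 and 404 FPKM with maltose, and did not share the high BMMY replicate 1 of SHB17 (0.99 times the mean of replicates 2 and 3 against 1.62 times). It was named after its value was seen.

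**Figure D5:**
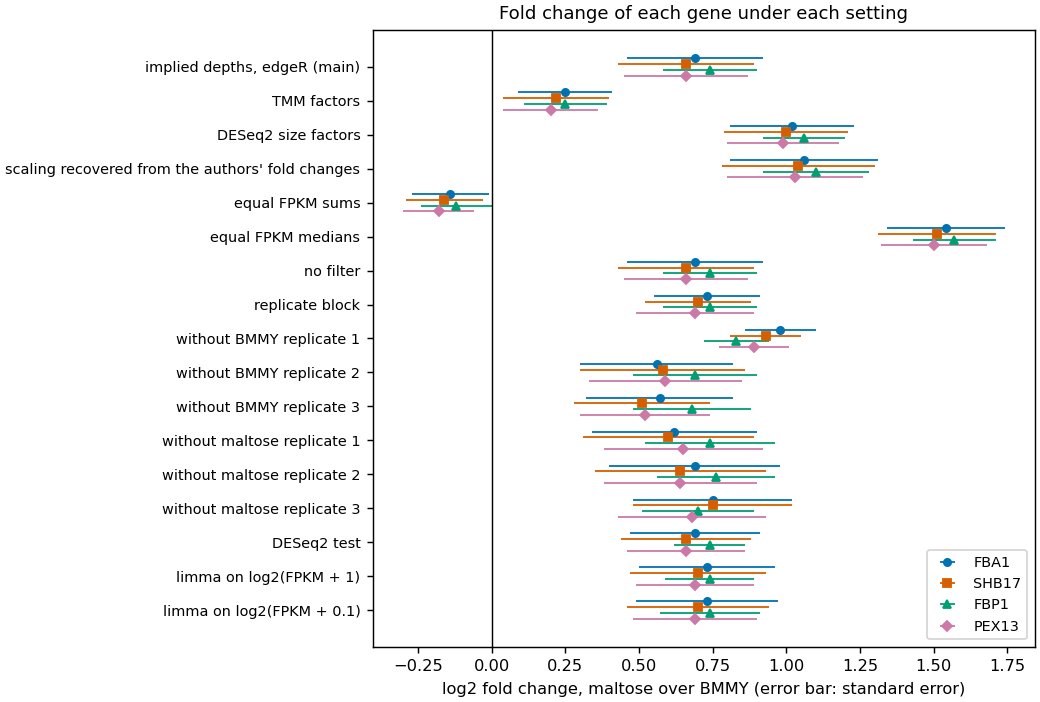
Log2 fold change of maltose over BMMY (horizontal axis, error bars are standard errors) for FBA1, SHB17, FBP1 and PEX13 under each scaling, tool and left-out library (rows). The 4 genes shift together with the scaling, from between -0.18 and -0.12 with equal FPKM sums to between 1.5 and 1.57 with equal FPKM medians.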

How the data were processed

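The 3 BMMY and 3 maltose RNA-seq libraries were grouped by their labels. Per the submitters' processing notes the tools were CASAVA, HISAT2 2.2.1 and StringTie, whose roles are not stated. Genome build, annotation and strand setting: not given in the sources used here. Whole-number read counts and FPKM values were deposited for 115 genes. The authors also deposited a p-value and a log2 fold change of their own comparison, whose test is not stated. The members and lists were chosen with earlier results of these data known.

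All 115 identifiers matched the 5040 genes of RefSeq assembly ASM2700v1, used for lengths and gene order only. Each library's depth was taken from count / (FPKM × length), as its median across genes. The 112 genes whose FPKM averaged 1 or more had their counts fitted with edgeR 4.0.16 (R 4.3.3), group as the only term, implied depths as library sizes and no TMM factors, since a list selected for change cannot be its own reference. P-values were two-sided, Benjamini-Hochberg adjusted over these genes and called under 0.05. A standard error is the absolute log2 fold change divided by the square root of F. The edgeR fit was also run on simulated counts, with the library sizes known and most genes unchanged. That simulation does not test the scaling between the real libraries. The authors' scaling was recovered from 92 genes with counts of at least 200 (largest difference 0.0034 on the log2 scale). Genes named are the 4 examined, the listed pathway genes, the 3 nearest profiles of each and PAS_chr2-2_0470, a gene next to SHB17. Alternatives were other scalings, DESeq2 1.42.0, limma 3.58.1 on log2(FPKM + 1) and log2(FPKM + 0.1), no filter, a replicate block and each library left out.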

Additional observations from a re-analysis of the deposited data

How the results depend on the processing

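Scaling moved the log2 fold changes of FBA1, SHB17, FBP1 and PEX13 together: 0.25, 0.22, 0.25 and 0.2 with TMM, 1.02, 1.0, 1.06 and 0.99 with DESeq2 size factors, 1.06, 1.04, 1.1 and 1.03 with the recovered scaling, 1.54, 1.51, 1.57 and 1.5 with equal FPKM medians, and -0.14, -0.16, -0.12 and -0.18 with equal FPKM sums. TMM and equal sums called 13 and 7 genes higher and 0 and 0 of the 4. With single libraries left out the fold changes ran over 0.56 to 0.98, 0.51 to 0.93, 0.68 to 0.83 and 0.52 to 0.89, genes called higher over 29 to 56, and the 4 genes called over 1 to 4. Within-medium deviations kept 7 of 12 nearest genes. DESeq2, limma with either pseudocount and no filter moved no fold change of the 4 beyond the spread between libraries. Between libraries of the same replicate number, the correlations of deviations were -0.15, -0.02 and 0.04. Over genes selected for change, these cannot settle whether the libraries were paired. The replicate block gave 0.73, 0.7, 0.74 and 0.69, with 49 genes called higher. Depth limits the precision of counts little; the scaling between libraries could not be set from unchanged genes.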
